A study of Mus musculus with 6 samples.

Results

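The genes described here are 9 genes of extracellular proteolysis: the matrix metalloproteinases Mmp8, Mmp12, Mmp13, Mmp14 and Mmp19, the metalloproteinase inhibitors Timp1 and Timp2, and Plau and Plaur, which encode the urokinase plasminogen activator and its cell surface receptor. They were chosen by symbol and matched by Entrez gene number. All 9 were among the 14574 genes listed in any library, and all 9 were listed in each of the 6 libraries. RNA sequencing measured macrophages grown from the femoral marrow of Cd28 KO mice and of C57BL/6J (WT) mice, 6 to 10 weeks old, with 3 libraries of each genotype, numbered 1 to 3 in the titles. Both groups were cultured in the same way for 7 days in 10% serum and 2-mercaptoethanol, with 25 ng/ml of human M-CSF, the growth factor of macrophages, renewed every 2 days. The labels name no further treatment of either group. The sources used here do not give the targeted part of Cd28, the strain background of the Cd28 KO mice or their sex. Nor is it said whether a number stands for a separate animal, and the p-values then measure only how far these libraries spread, which may be technical.

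Matrix metalloproteinases are zinc-dependent enzymes that are made as inactive precursors and cut collagen, elastin and other matrix proteins outside the cell. TIMP proteins bind and block the active enzymes. Urokinase, held at the cell surface by its receptor, turns plasminogen into plasmin, which digests fibrin and can activate metalloproteinase precursors. Macrophages use these enzymes to move through tissue and to remodel it, and macrophage elastase, the product of Mmp12, takes its name from these cells. The comparison asks how the transcript levels of these genes differ between Cd28 KO and WT macrophages.

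The libraries listed 12768 to 13327 genes each, in FPKM, a level per transcript length and per library, and the sources used here give no read number behind them. Cd28 was listed in every Cd28 KO library, at 24.2 to 26.9 FPKM against 30.1 to 51.1 in WT (exact two-sided permutation p = 0.1, the smallest that 3 against 3 allows). The 9 macrophage markers examined, among them Adgre1, Csf1r and Cd68, were listed in all 6 libraries, at a sum of 14840 to 16940 FPKM in Cd28 KO against 14180 to 14920 for WT. Most of that sum was Lyz2, at 10518 to 12716 FPKM in Cd28 KO against 9652 to 10639 for WT. Of the 9 log2 differences, 5 were positive and 4 negative. Replicate 3 differed from replicates 1 and 2 in Cd28 KO and in WT. Of the 10172 tested genes, 236 (2.32%) were at least 2-fold higher in replicate 3 than in replicates 1 and 2 of the same genotype, in both genotypes, and 124 (1.22%) were at least 2-fold lower, on the log2(FPKM + 1) scale. Results for the tested genes of the set are therefore given with and without replicate 3.

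Stretches of 120 bases before annotated start sites are shown only where they held the letters TGACTCA, which was so for 3 of the 7 genes with an entry. They are from RefSeq for GRCm38.p6, on the plus strand, and the capitals mark the letters TGACTCA, the binding letters of AP-1 (a dimer of Fos and Jun family proteins), read on either strand.
Mmp13: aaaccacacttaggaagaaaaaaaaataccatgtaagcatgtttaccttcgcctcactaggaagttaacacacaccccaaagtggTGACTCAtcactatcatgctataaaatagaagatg
Plaur: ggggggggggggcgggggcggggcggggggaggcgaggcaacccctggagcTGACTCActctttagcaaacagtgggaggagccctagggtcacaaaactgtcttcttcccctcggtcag
Mmp12, internal start: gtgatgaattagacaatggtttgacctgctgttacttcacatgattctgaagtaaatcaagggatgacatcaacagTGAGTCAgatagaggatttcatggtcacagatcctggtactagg
The Mmp13 stretch lies at chr9:7272394-7272513, that of Plaur at chr7:24462363-24462482 and that of Mmp12 at chr9:7347254-7347373, and none of them overlaps an exon in GENCODE M21. The Mmp12 stretch lies within the gene, inside the span of transcripts that begin further upstream. The Plaur stretch also lies inside the RefSeq gene span given below, and directly before the earliest Plaur transcript start in GENCODE M21. The match begins 35 bases before the start in Mmp13, 69 in Plaur and 44 in Mmp12, where it stands on the opposite strand as TGAGTCA. The other Mmp12 window, before the upstream start, held 0 matches. The table held 8 windows for 7 of the 9 genes, with no entry for Plau or Mmp19. In the 250 bases before the start, 3 of the 8 windows held TGACTCA on either strand, against 4.46% of the 32851 windows of all genes. The letters AGGAAG, a core of ETS factor sites, stood in 6 of the 8 windows on either strand, against 29.5% of all windows. These matches describe the letters only.

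None of the 9 genes was called different between Cd28 KO and WT when all 6 libraries were used. The filter, a mean of at least 1 FPKM, kept 7 of them, and left out Mmp14 and Timp1. Of these 7, limma called 0 at an adjusted p below 0.05, with or without the replicate number as a block, against 0.0197% of all 10172 tested genes without the block and 0.177% with it (0.138% higher and 0.0393% lower in Cd28 KO). Before adjustment, limma gave a p below 0.05 for 0 of the 7 without the block, against 2.49% of all genes, and for 3 with it (Mmp12, Plau and Plaur), against 7.89%. On the FPKM scale, Cd28 KO was below WT within all 3 replicate numbers for 0 of the 7, against 13.3% of all genes. The groups overlapped for each of the 9 genes, while 2.87% of all tested genes lay lower and 3.84% higher in Cd28 KO without overlap. All 7 differences were negative, as were 50.9% of those of all genes, with a median of -0.09 against -0.003 for all genes.

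**Figure D1:**
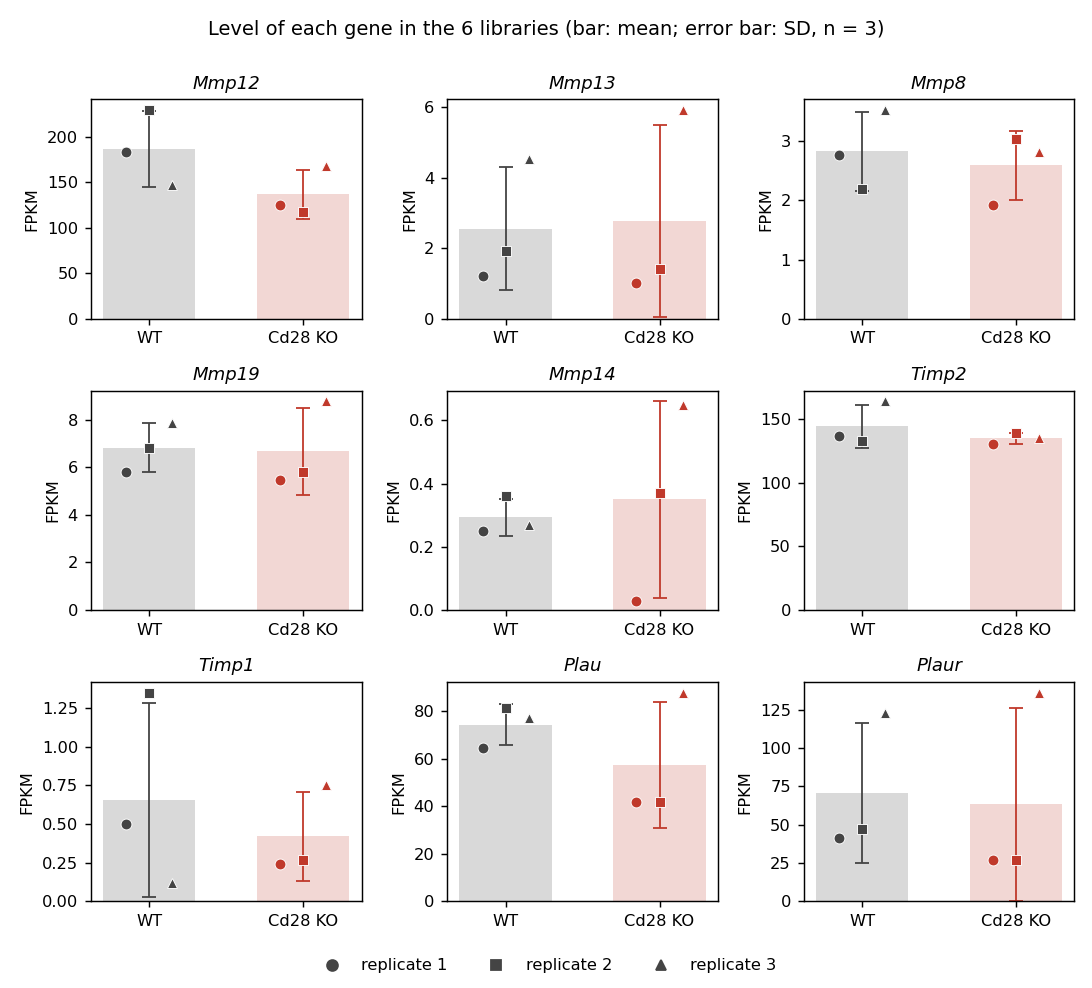
FPKM of each gene in WT (grey) and Cd28 KO (red), with a symbol for each replicate number, bars for means and error bars for the SD (n = 3). In Cd28 KO, replicates 1 and 2 of Mmp12, Plau and Plaur lie below all WT libraries, and replicate 3 does not.

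Mmp12 (Entrez 17381, chromosome 9, 7344397 to 7360461) encodes macrophage elastase and was, with Timp2, the most abundant gene of the set. In Cd28 KO replicates 1, 2 and 3 it stood at 125, 117 and 168 FPKM, against 183, 230 and 147 FPKM in the same order in WT. Replicates 1 and 2 of Cd28 KO were below every WT library, while replicate 3 of Cd28 KO was above replicate 3 of WT. The Cd28 KO mean of 137 ± 27.2 FPKM was 73.4% of the WT mean of 186 ± 41.7 FPKM (SD, n = 3 per genotype). The log2 difference was -0.44 ± 0.20 (SE), with a 95% interval from -0.91 to 0.03 and a limma adjusted p of 0.9995, or 0.595 with the replicate block. In bulk RNA, fewer cells that express a gene and less RNA per cell cannot be told apart.

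Plau (Entrez 18792, chromosome 14, 20836662 to 20843388), the urokinase gene, was also lowest in replicates 1 and 2 of Cd28 KO. It stood at 42.0, 42.1 and 87.9 FPKM in Cd28 KO replicates 1, 2 and 3, and at 64.8, 81.3 and 77.0 FPKM in WT. The 2 lowest libraries were thus Cd28 KO replicates 1 and 2, and the highest of the 6 was Cd28 KO replicate 3. The Cd28 KO mean of 57.3 ± 26.5 FPKM was 77.1% of the WT mean of 74.4 ± 8.60 FPKM (SD). The log2 difference was -0.45 ± 0.28 (SE), with a 95% interval from -1.12 to 0.21 and a limma adjusted p of 0.9995, or 0.567 with the block.

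Plaur (Entrez 18793, chromosome 7, 24460937 to 24475970) encodes the urokinase receptor, which is anchored in the membrane by a lipid. It stood at 26.7, 27.2 and 136 FPKM in Cd28 KO and at 41.5, 47.2 and 123 FPKM in WT. Here both replicate 3 libraries were far above the other 4, and within replicates 1 and 2 the Cd28 KO values were again the lower ones. The Cd28 KO mean of 63.3 ± 63.0 FPKM was 89.8% of the WT mean of 70.5 ± 45.5 FPKM (SD). The log2 difference was -0.42 ± 0.68 (SE), with a 95% interval from -2.02 to 1.19. Its limma adjusted p was 0.9995, or 0.556 with the block, where the interval narrowed to -0.77 to -0.06.

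In replicates 1 and 2 alone, limma called these 3 genes lower in Cd28 KO. The Cd28 KO mean was then 58.8% of WT for Mmp12, 57.5% for Plau and 60.8% for Plaur. The log2 differences were -0.75 ± 0.12 (SE) for Mmp12, with a limma adjusted p of 0.019, -0.77 ± 0.11 for Plau (limma adjusted p = 0.0151) and -0.70 ± 0.10 for Plaur (limma adjusted p = 0.0123). Thus 3 of the 7 tested genes were called, against 0.945% of the 10155 genes tested in these 4 libraries. The same 3 lay lower without overlap and 0 lay higher, against 18.3% and 25.8% of all genes in these 4 libraries. The other 4 were not called, with log2 differences of -0.01 ± 0.17 for Mmp8, -0.21 ± 0.18 for Mmp13, -0.14 ± 0.12 for Mmp19 and -0.0004 ± 0.09 for Timp2 (SE), and limma adjusted p values of 0.677 to 0.999. With 2 libraries per genotype, the spread within a group rests on single pairs. The genes, and the setting apart of replicate 3, were chosen with earlier results of these data known, so these counts are a description only.

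In replicate 3 the FPKM of the same genes was not lower in Cd28 KO. Cd28 KO stood at 114.5% of WT for Mmp12, 114.1% for Plau and 110.7% for Plaur, with 1 library per genotype and no replicate check. The FPKM of all genes summed to 576313 in Cd28 KO replicate 3 and to 510937 in WT replicate 3. These percentages therefore depend on the scale, and they were not recomputed after scaling to those sums. Whether the difference between genotypes itself differed between replicate 3 and the others was tested in limma with an interaction term, a fit chosen after these values were seen, which assumes that the lone replicate 3 libraries vary like the rest. The interaction was 0.95 ± 0.20 on the log2 scale for Mmp12, 0.96 ± 0.20 for Plau and 0.84 ± 0.17 for Plaur (SE), each at a limma adjusted p of 0.131. None of the 7 passed the threshold in that test, which 0.0688% of all genes did, so the difference between replicate 3 and the others was not shown for these genes.

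**Figure D2:**
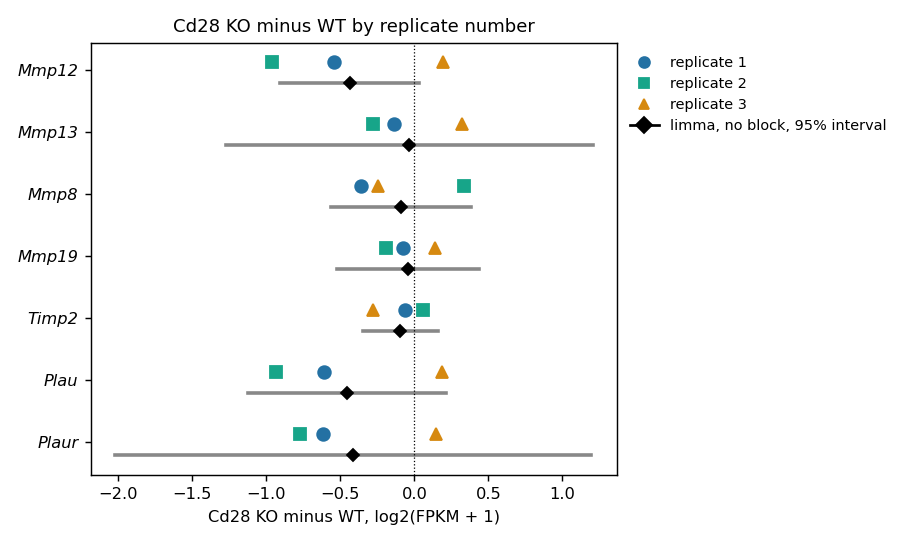
Cd28 KO minus WT on the log2(FPKM + 1) scale for the 7 tested genes, within replicate numbers 1, 2 and 3 (coloured symbols), with limma's estimate over all libraries (diamond) and its 95% interval (grey line). For Mmp12, Plau and Plaur replicates 1 and 2 lie between -0.96 and -0.55 and replicate 3 between 0.15 and 0.19.

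Mmp13 (Entrez 17386, chromosome 9, 7272514 to 7283333), a collagenase, was low and varied with the replicate number. It stood at 1.00, 1.41 and 5.92 FPKM in Cd28 KO and at 1.20, 1.93 and 4.54 FPKM in WT. Both replicate 3 libraries were above the other 4, and the genotypes overlapped. The log2 difference was -0.03 ± 0.53 (SE), with a 95% interval from -1.27 to 1.21, and -0.38 to 0.31 with the block (limma adjusted p = 0.981).

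Mmp8 (Entrez 17394, chromosome 9, 7558429 to 7568486), the collagenase stored in neutrophil granules, was also low. It stood at 1.93, 3.03 and 2.82 FPKM in Cd28 KO and at 2.76, 2.20 and 3.53 in WT, with no order by genotype or by replicate number. The log2 difference was -0.09 ± 0.20 (SE), with a 95% interval from -0.56 to 0.38. The 12 neutrophil and granulocyte precursor markers summed to 4.36 to 9.70 FPKM in Cd28 KO against 3.11 to 7.45 for WT. Of the 12, 10 were listed in at least 1 library and 5 in all 6, and Fcnb and Retnlg were at 0 in every library. Only 2, S100a8 and S100a9, had a mean of at least 1 FPKM. The part of these 12 markers in the Mmp8 values was not tested.

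Mmp19 (Entrez 58223, chromosome 10, 128790910 to 128800827), a metalloproteinase outside the collagenase group, stood at 5.45, 5.82 and 8.78 FPKM in Cd28 KO and at 5.81, 6.80 and 7.86 in WT. Replicate 3 was the highest library of each genotype. The log2 difference was -0.04 ± 0.20 (SE), with a 95% interval from -0.52 to 0.44.

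Mmp14 (Entrez 17387, chromosome 14, 54431598 to 54442456) encodes a membrane-bound metalloproteinase that activates other precursors at the cell surface. It was close to the lower end of the files, at 0.03, 0.37 and 0.65 FPKM in Cd28 KO and 0.25, 0.36 and 0.27 in WT. The Cd28 KO libraries spanned the WT values on both sides. It did not enter the test.

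Of the inhibitors, Timp2 was among the most abundant and steadiest genes of the set, and Timp1 was near the lower end of the files. Timp2 (Entrez 21858, chromosome 11, 118301061 to 118355411) stood at 131, 139 and 135 FPKM in Cd28 KO and at 137, 133 and 164 in WT, with WT replicate 3 the highest. Its log2 difference was -0.09 ± 0.11 (SE), with a 95% interval from -0.35 to 0.16. Timp1 (Entrez 21857, chromosome X, 20870166 to 20874737) stood at 0.24, 0.27 and 0.75 FPKM in Cd28 KO and at 0.50, 1.35 and 0.12 in WT, so that the lowest and the highest value were both WT libraries. The 10 fibroblast and stromal markers, cells in which Timp1 and Mmp14 are typically abundant, summed to 0.35 to 0.65 FPKM in Cd28 KO against 0.18 to 0.38 for WT. Of the 10, 9 were listed in at least 1 library and 2 in all 6, and Lum was at 0 in every library.

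FPKM is scaled to transcript length, so levels can be set side by side. By mean level the order in WT was Mmp12, Timp2, Plau, Plaur, Mmp19, Mmp8, Mmp13, Timp1 and Mmp14. Between neighbours the libraries did not overlap for Timp2 over Plau, Plaur over Mmp19 and Mmp19 over Mmp8, and the other neighbours overlapped. In Cd28 KO the order was Mmp12, Timp2, Plaur, Plau, Mmp19, Mmp13, Mmp8, Timp1 and Mmp14, with gaps between Plau and Mmp19 and between Mmp8 and Timp1. The first 4 genes held at least 26.7 FPKM in every library and the other 5 at most 8.78.

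Ratios within a library showed which genes shifted relative to each other. The ratio of Plau to Plaur was 1.57, 1.55 and 0.646 in Cd28 KO replicates 1, 2 and 3, and 1.56, 1.72 and 0.627 in WT. The ligand was thus above its receptor in replicates 1 and 2 of both genotypes and below it in replicate 3 of both. The ratio of Mmp12 to Timp2 was 0.955, 0.844 and 1.24 in Cd28 KO and 1.34, 1.72 and 0.893 in WT, which places replicates 1 and 2 of Cd28 KO below those of WT and replicate 3 above it. Mmp12 exceeded Timp1 in every library, at ratios of 170 to 1222, the lowest and the highest being the WT libraries with the most and the least Timp1. The ratio of Timp1 to Timp2 did not exceed 0.0101, nor that of Mmp14 to Timp2 0.00481.

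Replicate 3 was set against replicates 1 and 2 of the same genotype as a description, since it was noticed in these data. Plaur was 5.05 times as high in replicate 3 of Cd28 KO and 2.77 times in WT, and Mmp13 4.91 and 2.90 times. Plau was 2.09 times as high in Cd28 KO and 1.06 times in WT, and Mmp12 1.38 times in Cd28 KO and 0.711 times in WT. Mmp19 stood at 1.56 and 1.25 times, Mmp8 at 1.14 and 1.42 times and Timp2 at 1.00 and 1.22 times. On the log2 scale Plaur and Mmp13 were the 2 of the 7 tested genes that were at least 2-fold higher in both genotypes, against 2.32% of all genes. The median shift of all tested genes was -0.13 in Cd28 KO and -0.09 in WT.

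Some genes of the wider lists, which hold genes known to act with or upstream of these proteases, were also high in replicate 3. Among the 53 tested genes of the 6 lists, 11 were at least 2-fold higher in replicate 3 of both genotypes and 0 at least 2-fold lower, against 2.32% and 1.22% of all tested genes. The list of transcription factors and inducers held 7 of the 11, and the lists of other Mmp genes and of ADAM sheddases held 0. The lists were chosen with earlier results of these data known, so these counts are a description only. Among the 11 were Thbd, Thbs1, Cd44, Junb, Fos, Fosl2, Ets2, Il1b, Tnf and Osm. Thbs1, the matrix protein thrombospondin-1, stood at 1.83, 2.81 and 67.8 FPKM in Cd28 KO and at 2.27, 1.38 and 115.8 in WT. Fosl2, an AP-1 subunit, was 4.53 times as high in replicate 3 of Cd28 KO and 5.23 times in WT, and Junb 4.76 and 3.44 times. The cytokine gene Osm was 9.68 and 6.39 times as high, and Tnf 5.69 and 6.05 times.

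**Figure D3:**
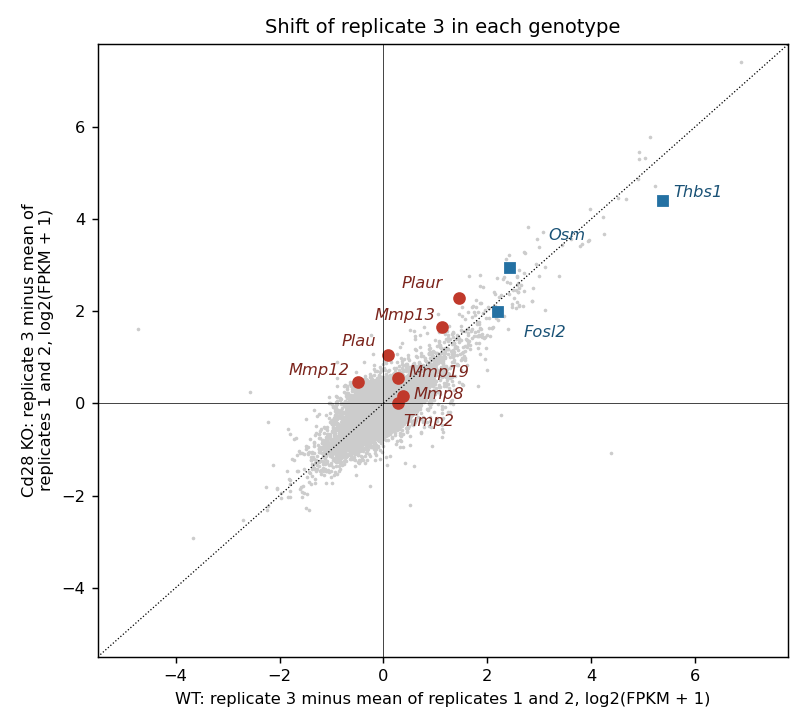
Replicate 3 minus the mean of replicates 1 and 2 on the log2(FPKM + 1) scale, in WT (x) and Cd28 KO (y), for the 10172 tested genes (grey), the 7 tested genes of the set (red) and 3 genes of the wider lists (blue). Plaur lies at 1.45 and 2.29 and Mmp13 at 1.13 and 1.66. Plaur, Mmp13, Plau, Mmp12 and Mmp19 lie above the dotted line of equal shift, and Mmp8 and Timp2 below it.

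None of the wider lists held a gene called between Cd28 KO and WT with all libraries, in either fit. They cover other Mmp genes, inhibitors, the plasminogen system, ADAM sheddases, matrix genes, and transcription factors and inducers. Of the 53 tested genes, limma called 0, and 2 had an unadjusted p below 0.05, against 2.49% of all genes. Their median log2 difference was -0.06, with 17 positive and 36 negative, where 50.9% of all genes were negative. Of the 53, 2 were higher and 0 lower without overlap, against 3.84% and 2.87% of all genes, so the share of the higher ones was near that of all genes.

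Mmp27, a metalloproteinase gene next to Mmp8, had the smallest p of these. It stood at 3.38, 3.40 and 1.93 FPKM in Cd28 KO and at 1.41, 1.59 and 1.99 in WT. The 2 highest libraries were Cd28 KO replicates 1 and 2, and in replicate 3 Cd28 KO was not above WT. Its log2 difference of 0.53 ± 0.21 (SE) did not pass the test (limma adjusted p = 0.9995, or 0.511 with the block). In replicates 1 and 2 alone, where 0.945% of all 10155 tested genes were called, it was 0.81 ± 0.13 (limma adjusted p = 0.0243). Mmp27 was the 1 gene of the wider lists called there, and opposite in direction to Mmp12.

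Both genes belong to a cluster of 10 Mmp genes on chromosome 9, between 7272514 and 7699585. In order they are Mmp13, Mmp12, Mmp1b, Mmp3, Mmp1a, Mmp10, Mmp8, Mmp27, Mmp20 and Mmp7. Of these, 7 were listed in at least 1 library and 4 were tested. Mmp3 did not exceed 0.18 FPKM, Mmp10 and Mmp7 were listed in WT replicate 3 alone, at 0.18 and 0.11 FPKM, and Mmp1a, Mmp1b and Mmp20 were listed in no library. The 4 tested genes of the cluster had means over all libraries from 162 FPKM for Mmp12 to 2.28 for Mmp27. The other tested gene of the family, Mmp24, which encodes a membrane-type enzyme, stood at 3.70 ± 0.284 FPKM in Cd28 KO against 4.04 ± 0.845 for WT (SD). The gelatinase genes Mmp2 and Mmp9 did not exceed 0.59 and 0.27 FPKM.

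Among the inhibitors, 2 of 10 genes were tested. Cst3, the cysteine protease inhibitor cystatin C, was the most abundant at 2457 ± 271 FPKM in Cd28 KO against 2240 ± 128 for WT, with a log2 difference of 0.13 ± 0.12. Timp3 and Reck did not exceed 0.17 and 0.16 FPKM, and Timp4 and A2m were listed in no library.

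In the plasminogen system 10 of 14 genes were tested, 3 with a positive and 7 with a negative difference, and a median of -0.07. S100a10, which with Anxa2 forms a plasminogen receptor at the cell surface, was higher in every Cd28 KO library, at 334, 314 and 416 FPKM against 285, 264 and 307 in WT. Its log2 difference of 0.31 ± 0.13 (SE) did not pass the test (limma adjusted p = 0.9995, and 0.503 with the block), nor did that of 0.24 ± 0.10 in replicates 1 and 2 alone (limma adjusted p = 0.329). Anxa2 stood at 356 ± 24.7 FPKM against 384 ± 41.9, and Eno1, an enzyme of glycolysis that also binds plasminogen, at 376 ± 32.3 against 383 ± 44.0. Lrp1, an endocytic receptor that takes up protease and inhibitor complexes, stood at 90.2 ± 20.8 FPKM against 110.3 ± 2.82 in WT, with a log2 difference of -0.31 ± 0.16. Igf2r had a difference of -0.34 ± 0.19. Plg was listed in no library, and Plat did not exceed 0.24 FPKM.

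The ADAM sheddases, membrane proteases that release cell surface proteins, had 7 of 13 genes tested and a median of -0.04. Adam8 stood at 207 ± 40.4 FPKM in Cd28 KO against 235 ± 29.8 for WT, Adam15 at 127 ± 6.01 and 135 ± 10.8, and Adam9 at 35.5 ± 4.50 and 32.3 ± 4.72. In each of these 3 genes the SD of at least 1 group was larger than the difference of the means.

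Of the matrix and attachment genes 13 of 18 were tested, with a median of -0.05. Spp1, which encodes osteopontin, a substrate of several metalloproteinases, was higher in every Cd28 KO library, at 4539, 4335 and 6110 FPKM against 3874, 4148 and 3545 in WT. Its log2 difference of 0.36 ± 0.15 (SE) did not pass the test (limma adjusted p = 0.9995, and 0.747 with the block), and in replicates 1 and 2 alone it was 0.15 ± 0.14 (limma adjusted p = 0.701). Lgals3, a lectin, stood at 4225 ± 551 against 4488 ± 301 FPKM, and Itgb1, an integrin chain, at 121 ± 11.2 against 128 ± 8.61.

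Of the transcription factors and inducers 19 of 23 were tested, 3 with a positive and 16 with a negative difference, and a median of -0.10. Tgfb1 stood at 276 ± 11.3 FPKM against 301 ± 16.9 in WT, Runx1 at 19.8 ± 0.845 against 22.2 ± 3.40, Etv5 at 7.99 ± 1.38 against 9.04 ± 1.11, and Spi1, the factor PU.1 of the macrophage lineage, at 388 ± 57.6 against 367 ± 3.03. None passed the test.

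**Figure D4:**
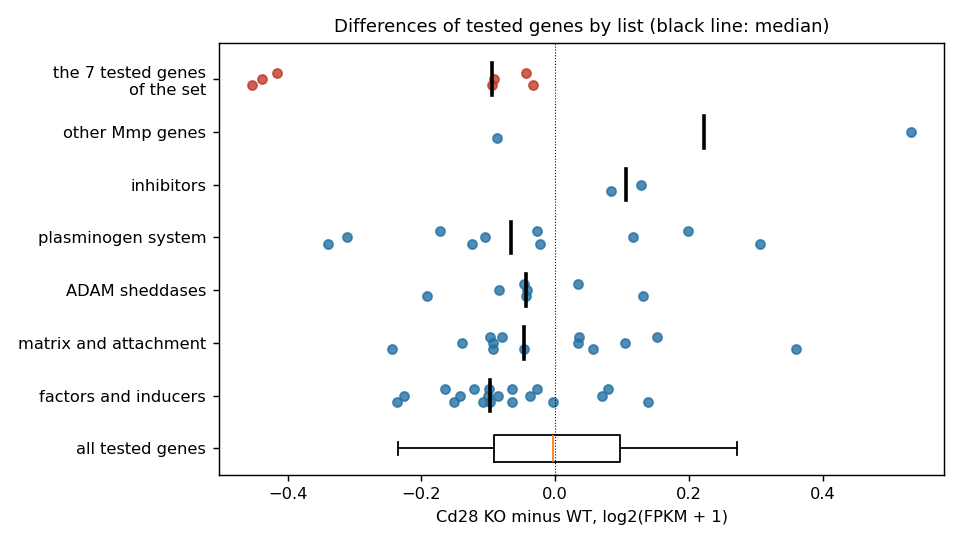
Cd28 KO minus WT on the log2(FPKM + 1) scale for the tested genes of each list (points) with the list's median (black line), and a box for all tested genes (quartiles, whiskers from the 5th to the 95th percentile, median in orange). Mmp12, Plau and Plaur are the 3 leftmost red points, between -0.45 and -0.42, and Mmp27 is the rightmost point at 0.53.

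The genes nearest in pattern were found by the root mean square distance between log2(FPKM + 1) profiles over the 6 libraries, after subtracting each gene's mean. For Mmp12 they were Atp6v0d2, a proton pump subunit, at a distance of 0.07, and Lat at 0.10. Atp6v0d2 stood at 51.8, 50.9 and 62.5 FPKM in Cd28 KO and at 73.8, 97.2 and 61.1 in WT. For Plau the nearest was Ctsk, the bone matrix protease cathepsin K, at 0.13, followed by Gpc1 at 0.14. For Plaur they were Pdgfa at 0.11 and Phlda1 at 0.14, and for Mmp13 Tbc1d10a and Tppp3, both at 0.14. Chka and 1810013L24Rik were nearest to Mmp19, Mvb12b and Tarsl2 to Mmp8, and Togaram1 and Tlr13 to Timp2, at distances of 0.02 to 0.07. All profiles share the same 6 libraries.

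Of 10 markers of osteoclasts and osteoblasts, 8 were listed in at least 1 library and 5 in all 6. The 4 tested were Ctsk, Dcstamp, Acp5 and Nfatc1, of which 3 had a negative difference, like Mmp12 and Plau, and 1 a positive one. The 10 summed to 44.6 to 55.2 FPKM in Cd28 KO against 52.2 to 61.3 for WT, and Calcr and Oscar were at 0 in every library. Ctsk stood at 10.8, 8.89 and 17.6 FPKM in Cd28 KO and at 14.8, 18.6 and 15.8 in WT, and in replicates 1 and 2 alone it was called lower (log2 -0.70 ± 0.13, limma adjusted p = 0.0389). It was the 1 of the 4 called there, where 0.945% of all 10155 tested genes were called. These markers were chosen after seeing their values. Dcstamp, needed for cell fusion, stood at 7.22, 5.46 and 8.52 against 10.2, 17.6 and 6.70 FPKM, and Acp5, an acid phosphatase, at 4.45, 3.86 and 5.04 against 6.54, 6.49 and 4.96 FPKM. Nfatc1, a transcription factor of osteoclast formation, went the other way, at 22.6, 26.1 and 23.5 against 20.4, 18.3 and 27.2 FPKM, with a log2 difference of 0.14 ± 0.16 over all libraries and 0.32 ± 0.11 in replicates 1 and 2 (limma adjusted p = 0.9995 and 0.238). The median difference of the 4 tested markers was -0.62 in replicates 1 and 2 and 0.08 in replicate 3. Their part in the Mmp12 and Plau values was not tested.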

How the data were processed

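RNA of 3 Cd28 KO and 3 WT macrophage cultures was sequenced. The authors deposited 1 file of FPKM per library. Bowtie, RSEM and the build GRCm38 are named in the submitters' processing notes; the sources used here give neither tool versions nor the annotation. A gene absent from a file was counted as 0. Of 14574 Entrez numbers, 14551 matched RefSeq for GRCm38.p6 and 23 did not. FPKM keeps no read depth, so counting error is unknown. No 2 libraries shared more than 0.46% of values of at least 1 FPKM.

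Genes with an average of 1 FPKM or more were tested with limma 3.58.1 (R 4.3.3; empirical Bayes with trend, two-sided, Benjamini-Hochberg over all tested genes) on log2(FPKM + 1), which understates changes of low genes. The fit was also run on simulated data built from the deviations of these libraries, and the outcome is not given here. Tables were computed in Python 3.11.15 (SciPy 1.17.1, NumPy 2.4.6, pandas 2.3.3) and drawn with Matplotlib 3.10.9. Deviations from group means correlated across genes at 0.752, 0.505 and 0.783 for replicate numbers 1, 2 and 3, and the numbers were used as pairs on these data, since no label states it. Crossed numbers gave 0.535 (Cd28 KO 2 with WT 1) and 0.663 (Cd28 KO 1 with WT 2), so the pairing of numbers 1 and 2 is assumed. The members and lists were chosen with earlier results of these data known. Named genes are the members, Cd28, the called genes of each wider list, the 3 of smallest p and the 2 most abundant, the Mmp cluster of chromosome 9 and the 2 nearest patterns. The other low or replicate 3 examples and the osteoclast markers were chosen after seeing their values. The other marker lists summed in Cd28 KO and WT, respectively, to 3.87 to 6.03 and 2.82 to 5.98 FPKM (dendritic cells), 4.18 to 7.05 and 4.60 to 7.49 (lymphocytes), 4.71 to 9.96 and 4.77 to 17.9 (endothelium, with Emcn at 0) and 1.85 to 2.89 and 3.31 to 5.42 (mast cells and basophils). Most of the lymphocyte sum was Cd4 and most of the endothelial sum Kdr. Most of the mast cell and basophil sum was Kit, at 1.60 to 1.74 FPKM in Cd28 KO against 2.80 to 3.88 in WT. Kit lay lower without overlap, as did 2.87% of all tested genes, and was not called (limma adjusted p = 0.9995). One gene of the wider lists is not reported here by name.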

Additional observations from a re-analysis of the deposited data

How the results depend on the processing

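Over all genes limma called 2 genes, 5 with no filter, 18 with the replicate block, 96 in replicates 1 and 2 alone, and 2 to 3 when 1 library was left out. Of the tested members it called 0 in each alternative except replicates 1 and 2 alone (3), and of the wider lists 0 except there (1). Leaving out 1 library gave 0 called in both, and 0 to 3 members without overlap. These were Mmp12, Plau and Plaur (3) without Cd28 KO replicate 3 or in replicates 1 and 2 alone, and Mmp12 (1) without WT replicate 3. All lay lower in Cd28 KO, as did 18.3% of all 10155 tested genes in replicates 1 and 2 alone. That share is not given here for the fits with 1 library left out, so these counts are a description only. The replicate block changed no call of a member. Without Cd28 KO replicate 1, the differences of Mmp8 (0.049), Mmp13 (0.31) and Mmp19 (0.070) turned positive. Without Cd28 KO replicate 2, those of Mmp13 (0.18) and Mmp19 (0.03) did. Without WT replicate 3, those of Mmp8 (0.04), Mmp13 (0.34), Mmp19 (0.05) and Plaur (0.069) did. None of these passed the test, and the cause was not tested. With 1 library left out, Mmp8 ranged from -0.213 to 0.049, Mmp13 from -0.585 to 0.34, Mmp19 from -0.230 to 0.070 and Plaur from -1.18 to 0.069. Mmp12 ranged from -0.75 to -0.28 and Plau from -0.80 to -0.28 over the alternatives run, with limma adjusted p values of 0.019 to 1 and 0.0151 to 1. The Cd28 difference of -14.2 FPKM was recomputed on the TPM scale, with 1 library left out and in replicates 1 and 2 alone, and stayed negative there. It was -8.56 FPKM without WT replicate 3 and -9.22 in replicates 1 and 2 alone. The depth behind the low values of Mmp14 and Timp1 is unknown.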
